A study of Hordeum vulgare with 6 samples.

Results

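*LAX2*, *IAA12*, *ARF22* and *ARF10* are 4 auxin genes of barley (*Hordeum vulgare*), 1 for the uptake of auxin into cells and 3 for the transcriptional response to it, among the 26933 genes of the deposited expression table. The names are those of the study. In the table they stand as HORVU.MOREX.r3.4HG0392470 (*LAX2*, chromosome 4H), HORVU.MOREX.r3.5HG0509090 (*IAA12*, chromosome 5H), HORVU.MOREX.r3.1HG0043670 (*ARF22*, chromosome 1H) and HORVU.MOREX.r3.2HG0182280 (*ARF10*, chromosome 2H), where the chromosome is read from the identifier. The study's annotation calls *ARF22* auxin response factor 16, so the number in its name need not match that of a gene in another species. All 4 had been selected on their change between *mads1* and WT in these same libraries, together with occupancy by HvMADS1 in CUT&Tag, a method that cuts and sequences the DNA next to a protein. The differences between genotypes are therefore given for them as a description, with no p, and where the fit over all genes called one of them, that is stated without being used as evidence.

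The 3 *mads1* samples came from homozygous knockout plants made with CRISPR-Cas9 in cv. Golden Promise, and the 3 WT samples from plants without the knockout. The study made several knockout lines, and the labels do not say which one was sequenced. Both genotypes were grown normally and sampled at W7.5, a stage on Waddington's scale of spike development. Each sample pooled tissue of many plants, described as lemma and awn in the methods and as spikelet in the labels. The lemma is the outer bract around the floret, and the awn is its bristle-like tip. *HvMADS1*, the E-class floral homeotic gene that was knocked out, is not analysed here, so the libraries carry no check of their labels by the targeted gene. Each knockout allele that the study describes carries a premature stop codon, but the labels name no allele. The 2 guides used to make the knockout lines are shown instead. Both were designed against the first exon of *HvMADS1* on chromosome 4H. Each sequence is the stretch of 19 bases that the forward and reverse cloning primers share, with the 10 bases next to the guide scaffold, the seed that pairs with the target first, in capitals.
Target 1 of *HvMADS1*: tgggaaggtGGAGATGAGG
Target 2 of *HvMADS1*: tcgccctcaTCATCTTCTC

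Auxin enters plant cells through AUX1/LAX carriers and leaves them through efflux carriers, so that the placement of both sets where in a young organ it collects. Inside the cell it joins a receptor of the TIR1/AFB family to an Aux/IAA protein, and the Aux/IAA protein is then destroyed. Aux/IAA proteins otherwise sit on auxin response factors (ARFs), the proteins that bind auxin-responsive promoters, and keep them from activating transcription. In Arabidopsis, ARF10 and ARF16 belong to a class of ARFs that mostly represses and whose transcripts are cut by a microRNA, whereas ARF19 is an activator that Aux/IAA proteins restrain.

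Levels are FPKM, fragment numbers divided by gene length and by the library total, so genes of different length can be set side by side. Summed over genes they came to between 939663 and 966119 in the *mads1* libraries and between 993575 and 994495 in the WT libraries. Sums this even also arise when values are scaled to a fixed total (TPM), so the values may be TPM, which leaves ratios between genes of a library the same. The number of reads is unknown. The most common ratio between low values, 0.15 to 0.5 FPKM in both libraries, gave depths of 0.94 to 1.06 relative to WT replicate 3. This is an approximate estimate from values with 2 decimals. A ratio near 1 can also come from the scaling of the values, so equal depth is not established. *HvSHI* and *HvDL*, regulators of the awn and lemma, were present in every library, at 14.3 to 65.7 FPKM in *mads1* and 57.5 to 96.5 FPKM in WT. All 4 auxin genes passed the filter of 1 FPKM in at least 3 of the 6 libraries, as did 17996 genes in all.

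*LAX2*, *ARF22* and *ARF10* stood apart between genotypes by far more than their libraries of one genotype did, and *IAA12* was at 1.52 FPKM or less in *mads1*. *LAX2* was higher and the other 3 were lower in *mads1*. At an adjusted p below 0.05 (limma, adjusted by Benjamini and Hochberg's method) and a change of at least 1.5-fold, 3 of the 4 were called, 1 higher and 2 lower. Of all genes tested 21.1% were called, 6.60% higher and 14.5% lower. The values of the 2 genotypes did not overlap for 4 of the 4, against 55.9% of all genes tested. Nothing is read from either count, since the genes were chosen by this contrast. In bulk tissue such as this, fewer cells of a type and less RNA per cell cannot be told apart.

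*LAX2* codes for an AUX1/LAX influx carrier, which takes auxin up from the cell wall space. It was at 164, 148 and 172 FPKM in the *mads1* libraries, against 71.0, 82.2 and 88.7 FPKM in the WT libraries. The lowest *mads1* library was thus well above the highest WT library. The mean of 161 ± 12.5 FPKM in *mads1* was 199.8% of the mean of 80.6 ± 8.95 FPKM in WT (SD, n = 3 each). On the log2(FPKM + 1) scale the difference was 0.99, the 519th largest rise among the genes tested. *LAX2* was also the most abundant of the 4 genes in each of the 6 libraries.

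*IAA12* codes for an Aux/IAA protein, a short-lived repressor of ARFs that is itself induced by auxin in most members of its family. The *mads1* libraries listed it at 0.99, 1.52 and 0.19 FPKM, against 22.1, 10.5 and 9.58 FPKM in the WT libraries. No *mads1* library came near a WT library, but WT replicate 1 was well above the other WT libraries and *mads1* replicate 3 well below the other *mads1* libraries. The mean of 0.900 ± 0.67 FPKM in *mads1* was 6.40% of the mean of 14.1 ± 7.0 FPKM in WT (SD, n = 3 each). The difference of -2.96 on the log2(FPKM + 1) scale was the 139th largest fall among the genes tested, and that scale understates the fall of a gene at such low values.

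*ARF22* and *ARF10* code for ARFs, and their libraries of one genotype lay close together. *ARF22* was at 6.17, 5.38 and 6.07 FPKM in *mads1*, against 11.8, 11.6 and 11.3 FPKM in WT. Its *mads1* mean, 5.87 ± 0.430 FPKM, was 50.7% of the WT mean, 11.6 ± 0.212 FPKM (SD, n = 3 each), and the difference was -0.87 on the log2(FPKM + 1) scale. The spread of *ARF22* among the WT libraries, an SD of 0.02 on that scale, was under that of most genes, with 4.81% of the genes tested having a smaller one. *ARF10* was at 7.44, 6.87 and 7.18 FPKM in *mads1*, against 10.9, 10.2 and 11.2 FPKM in WT. The gap between the highest *mads1* and the lowest WT library of *ARF10* was wider than the range of either genotype. Its *mads1* mean, 7.16 ± 0.285 FPKM, was 66.8% of the WT mean, 10.7 ± 0.491 FPKM (SD, n = 3 each). The difference of -0.523 on the log2(FPKM + 1) scale lay just inside the limit on fold change of 0.585, and *ARF10* was the gene of the 4 that was not called. The study had itself listed *ARF10* as changed, by a test on read counts with the same limits. The added 1 FPKM makes the difference smaller: it was -0.576 with a pseudocount of 0.1.

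**Figure D1:**
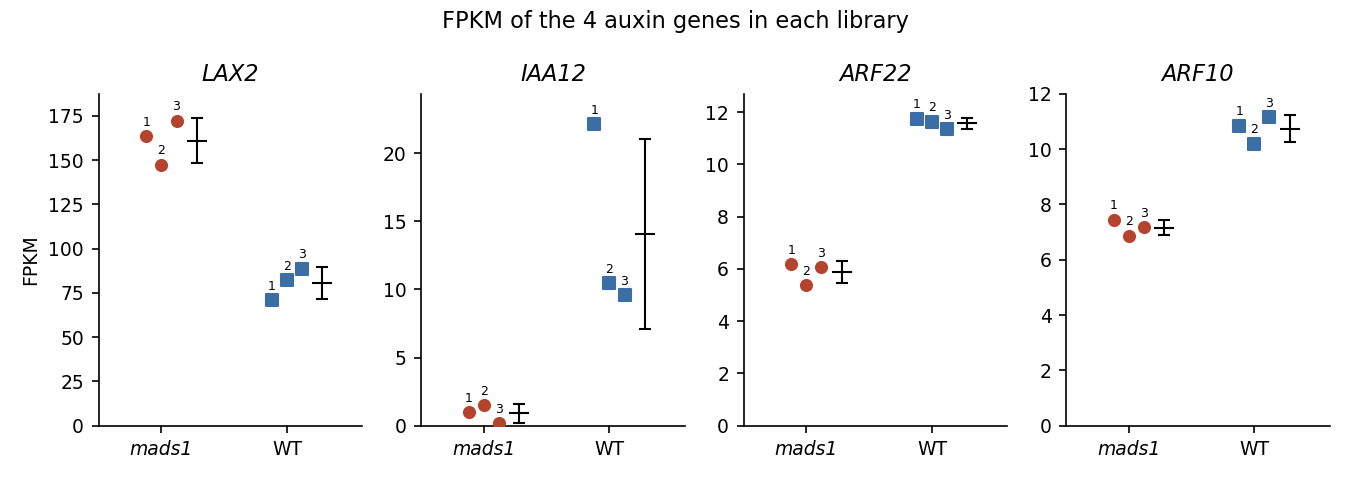
FPKM of *LAX2*, *IAA12*, *ARF22* and *ARF10* in each library (points, numbered by replicate; circles *mads1*, squares WT), with the mean and SD beside them (n = 3 each) and a linear axis from 0 for each gene. *LAX2* is higher in *mads1* and the other 3 genes are lower, without overlap, and *IAA12* has the widest spread, with WT replicate 1 at 22.1 FPKM.

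The order of the levels within a library does not depend on how libraries are scaled to each other. In each *mads1* library the order was *LAX2*, *ARF10*, *ARF22*, *IAA12*, from high to low. *LAX2* was first in each WT library too, but the next 3 genes changed places, with *IAA12* next after *LAX2* in WT replicate 1, between *ARF22* and *ARF10* in replicate 2 and last in replicate 3. In WT the range of *IAA12* overlapped those of *ARF22* and *ARF10*, so it did not differ from either in level beyond its spread, and the lowest *ARF22* library (11.3 FPKM) was only just above the highest *ARF10* library (11.2 FPKM). In *mads1* the ranges of all 3 were apart. *ARF22* relative to *ARF10* was 0.819 ± 0.0323 in *mads1* and 1.08 ± 0.0627 in WT (SD, n = 3 each), below 1 in each *mads1* library and above 1 in each WT library.

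Another ARF gene of the study's list, *ARF19* (HORVU.MOREX.r3.7HG0726940, chromosome 7H), went the other way. It had been chosen by the same contrast, as had *ARF22* and *ARF10*. The order and the shares below follow in part from that choice, so nothing is read from them. Other ARF genes were not analysed, so the 3 do not stand for the family. It was at 8.63, 8.97 and 9.29 FPKM in *mads1*, against 4.81, 4.04 and 5.32 FPKM in WT. The order of the 3 ARF genes was *ARF19*, *ARF10*, *ARF22* in each *mads1* library and the exact reverse, *ARF22*, *ARF10*, *ARF19*, in each WT library. Added up, the 3 genes came to 22.0 ± 0.692 FPKM in *mads1* and 27.0 ± 1.02 FPKM in WT (SD, n = 3 each). Of that sum *ARF19* held 40.8% ± 1.78 in *mads1* and 17.4% ± 1.76 in WT, and *ARF10* held 32.6% ± 0.815 in *mads1* and 39.7% ± 0.364 in WT (SD, n = 3 each). *ARF22* held 26.7% ± 1.21 in *mads1* and 42.9% ± 2.11 in WT (SD, n = 3 each). Reads that RSEM could not place with one ARF gene alone would be divided between such genes, and how many there were is not known.

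**Figure D2:**
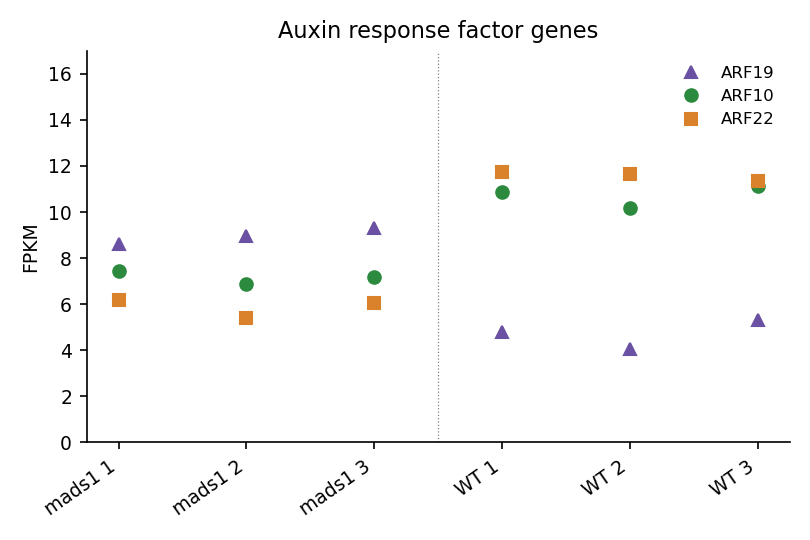
FPKM per library of the ARF genes *ARF19* (triangles), *ARF10* (circles) and *ARF22* (squares), with the 3 *mads1* libraries left of the 3 WT libraries and a linear axis from 0. *ARF19* is the highest of the 3 in each *mads1* library and the lowest in each WT library, and *ARF22* and *ARF10* nearly meet in WT replicate 3.

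*IAA14* (HORVU.MOREX.r3.5HG0519690, chromosome 5H), the other Aux/IAA gene of the study's list, was at 14.0, 13.1 and 16.0 FPKM in *mads1*, against 39.9, 28.7 and 37.4 FPKM in WT. It was lower in *mads1* without overlap, like *IAA12*, but kept 40.7% of its WT mean. *IAA14* exceeded *IAA12* in each library, by 8.64 to 84.4 times in *mads1* and by 1.80 to 3.90 times in WT. The ratio of 84.4 belongs to *mads1* replicate 3, where *IAA12* was at 0.19 FPKM and 2 decimals leave little precision.

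Beyond these 4 genes, 7 more genes with an auxin name or annotation were taken from the study's lists of bound and changed genes, all chosen by this contrast. The limits on adjusted p and fold change were passed by 7 of the 7, 6 lower and 1 higher, where 21.1% of all genes tested were called, 14.5% lower and 6.60% higher. The median difference of the 7 was -1.95 on the log2(FPKM + 1) scale, beside -0.70 over *LAX2*, *IAA12*, *ARF22* and *ARF10* and 0.05 over all genes tested. Nothing is read from the count or the medians, since the contrast had chosen these genes, and *IAA12*, *SAUR54* and *SAUR like* passed the filter through their WT values. These are *ARF19*, *IAA14*, 4 *SAUR* genes, small genes that auxin induces within minutes in many plants, and a gene of the dormancy/auxin associated family (HORVU.MOREX.r3.4HG0341070, chromosome 4H). The *SAUR* genes kept between 3.45% and 23.4% of their WT means. The dormancy/auxin associated gene was at 111, 154 and 71.5 FPKM in *mads1* and 841, 638 and 657 FPKM in WT. In each WT library it was the most abundant of these 7 genes and the 4 above, and in *mads1* it exceeded *LAX2* in replicate 2 only. Receptor genes and the other families of the pathway were not analysed here, since none of the 26933 identifiers could be joined to the names in the RefSeq table.

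The 4 genes differed in how much they varied within a genotype. *IAA12* had an SD of 0.55 among the *mads1* and 0.62 among the WT libraries on the log2(FPKM + 1) scale. These were larger than those of 97.8% of the genes tested in *mads1* and 98.8% in WT. Its *mads1* SD rests on values of 0.19 to 1.52 FPKM, which may stand for few reads. Whether it reflects more than the noise of low values was not tested. The median SD over all genes tested was 0.13 in *mads1* and 0.11 in WT. Over the 7 other auxin genes it was 0.19 in *mads1* and 0.30 in WT. A wide spread was thus not particular to *IAA12*: *SAUR36* had an SD of 0.44 in *mads1* and 0.45 in WT, though *SAUR51* had 0.08 and 0.46. *LAX2* had an SD of 0.11 in *mads1* and 0.16 in WT, and *ARF10* one of 0.05 in *mads1* and 0.06 in WT.

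The order of *IAA12* over the libraries of each genotype was the reverse of that of *LAX2*, but the sizes differed. On the log2(FPKM + 1) scale, *mads1* replicate 2 minus replicate 3 was 1.08 for *IAA12* and -0.22 for *LAX2*. In *mads1* the order of *IAA12* rests on the low values given above. *IAA12* was highest in replicate 2 and lowest in replicate 3 of *mads1*, where *LAX2* was lowest and highest. In WT, *IAA12* was highest in replicate 1 and lowest in replicate 3, where again *LAX2* was lowest and highest. The order of *IAA12* over the 3 libraries of each genotype was shared by 1003 of the 17996 genes tested (5.57%), and that of *LAX2* by 1567 (8.71%). Among the genes called lower in *mads1*, 13.7% had the order of *IAA12* and 1.38% that of *LAX2*. Among the genes called higher in *mads1*, 1.26% had the order of *IAA12* and 12.3% that of *LAX2*. These genes share the same 6 libraries and are not independent. What made WT replicate 1 and *mads1* replicate 3 stand apart for *IAA12*, and what lay behind the order of *LAX2*, was not tested.

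WT replicate 1 exceeded the mean of the other WT libraries by 1.07 for *IAA12* on the log2(FPKM + 1) scale. The median of this excess was 0.62 over the 415 genes tested that had a difference of -2 or less, 0.38 over the 7 other auxin genes, 0.24 over all genes called lower in *mads1* and -0.03 over all genes tested. *LAX2* was at -0.26, *ARF22* at 0.03 and *ARF10* at 0.02. The difference of *IAA12* between genotypes was -2.60 without WT replicate 1 and -2.66 without *mads1* replicate 3, against -2.96 over all 6 libraries. That of *LAX2* was 0.90 without WT replicate 1.

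**Figure D3:**
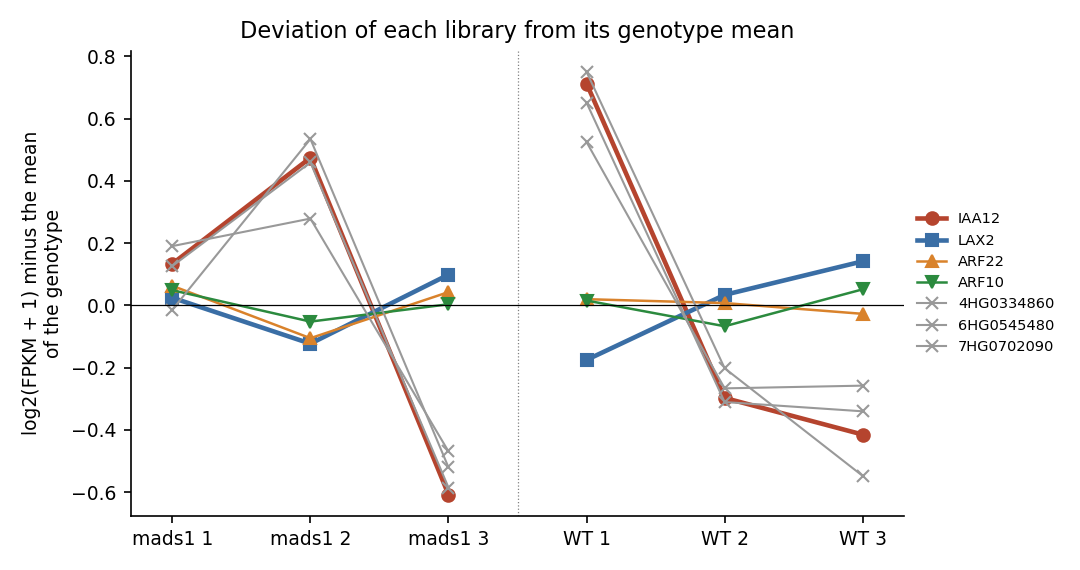
Deviation of log2(FPKM + 1) in each library from the mean of its genotype, for the 4 auxin genes (colours) and for the 3 genes most like *IAA12* (grey crosses, named by the end of their identifiers), with lines joining the values of a gene within a genotype. *IAA12* and the grey genes are high in *mads1* replicate 2 and WT replicate 1 and low in *mads1* replicate 3. *LAX2* runs the opposite way by less, and *ARF22* and *ARF10* stay near 0.

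The genes most like each of the 4 were found by the root mean square difference between mean-centred log2(FPKM + 1) values over the 6 libraries, which compares both the size of the difference between genotypes and the pattern of the libraries. The 12 genes found, 3 for each, had Pearson's r of 0.995 to 0.999 with the gene they resembled, which describes 6 points that share libraries and a difference between genotypes. *IAA12* had the fewest close genes, none within 0.1 and 13 within 0.2. Few genes differed between genotypes by as much as *IAA12*, so counts within a fixed distance in part restate the size of that difference. The closest was a gene annotated as a major facilitator superfamily protein, a family of membrane transporters (HORVU.MOREX.r3.4HG0334860, chromosome 4H), at 16.1, 23.9 and 11.0 FPKM in *mads1* and 227, 116 and 114 FPKM in WT. HORVU.MOREX.r3.6HG0545480 and HORVU.MOREX.r3.7HG0702090, for which no annotation was used here, came next.

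*LAX2* had 63 genes within 0.1, *ARF22* had 115 and *ARF10* had 348. Near *LAX2* were HORVU.MOREX.r3.5HG0494680, HORVU.MOREX.r3.4HG0334080 and HORVU.MOREX.r3.2HG0178690, the last at 3649 to 4457 FPKM in *mads1* and 1859 to 2220 FPKM in WT. The closest match of all was that of HORVU.MOREX.r3.2HG0198070 to *ARF22*, at a difference of 0.0176, with 23.6, 20.3 and 22.9 FPKM in *mads1* and 42.0, 42.3 and 39.9 FPKM in WT. HORVU.MOREX.r3.3HG0323030 and HORVU.MOREX.r3.7HG0724810 followed for *ARF22*. HORVU.MOREX.r3.6HG0545970, HORVU.MOREX.r3.5HG0471860 and HORVU.MOREX.r3.7HG0635740 were nearest to *ARF10*, and none of these 3 was called either, at differences of -0.51, -0.53 and -0.47 on the log2(FPKM + 1) scale.

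The 4 genes lie on 4 chromosomes, so their neighbours in identifier order were compared. Of the 16 listed genes next to them, 2 on each side, 12 were tested and 4 were called, all lower in *mads1* (33.3% of the 12, against 21.1% of all genes tested called in either direction and 14.5% called lower). Without the 2 neighbours that the study had itself chosen by this contrast, 2 of 10 were called. HORVU.MOREX.r3.1HG0043600 among them had passed the filter through its WT values, so nothing is read from this count. None of the tested genes directly beside *LAX2*, *IAA12*, *ARF22* or *ARF10* was called. The 4 called neighbours stood in the next place but one. Beside *LAX2*, HORVU.MOREX.r3.4HG0392530 was at 42.3 ± 4.73 FPKM in *mads1* and 69.9 ± 2.12 FPKM in WT (SD, n = 3 each; log2 difference -0.72, adjusted p = 0.000431 from limma), the opposite direction to *LAX2*. Beside *ARF22*, HORVU.MOREX.r3.1HG0043600 was at 0.65 ± 0.355 FPKM in *mads1* and 2.88 ± 0.805 FPKM in WT (SD, n = 3 each; log2 difference -1.23). It is given without p, because of the way it passed the filter.

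The other called neighbours are themselves on the study's list of bound and changed genes, and are given without a test. The gene annotated as a nucleotide/sugar transporter (HORVU.MOREX.r3.2HG0182210) near *ARF10* was at 6.70, 11.1 and 5.34 FPKM in *mads1* and 142, 65.8 and 72.1 FPKM in WT. It fell by 3.40 on the log2(FPKM + 1) scale, far more than *ARF10*, and was high in the same libraries as *IAA12*. The gene annotated as primosome PriB (HORVU.MOREX.r3.5HG0509070) near *IAA12* was at 47.4 ± 3.81 FPKM in *mads1* and 115 ± 7.70 FPKM in WT (SD, n = 3 each). Between it and *IAA12*, HORVU.MOREX.r3.5HG0509080 was at 116 ± 7.39 FPKM in *mads1* and 131 ± 6.47 FPKM in WT (SD, n = 3 each; log2 difference -0.18, adjusted p = 0.0859 from limma).

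**Figure D4:**
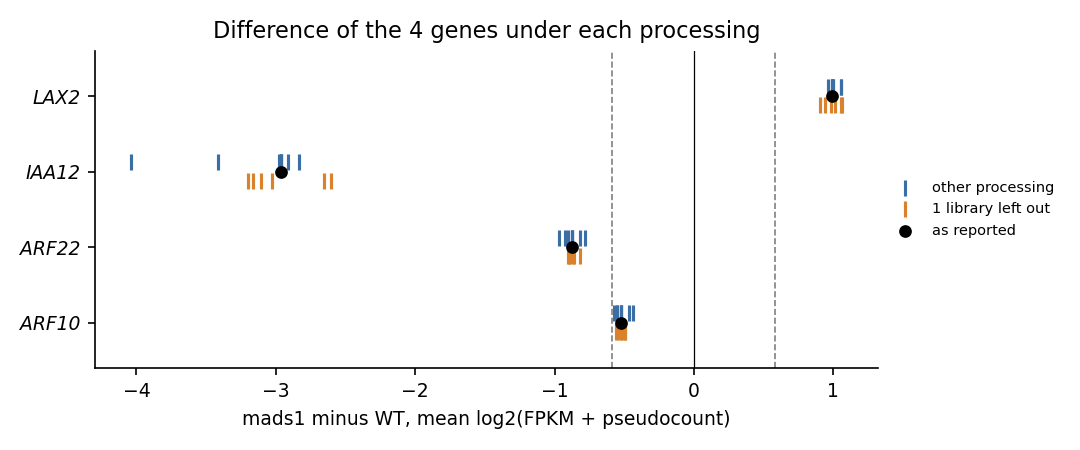
Difference of each of the 4 auxin genes, *mads1* minus WT in mean log2 FPKM, as reported (dots), under other pseudocounts, filters, scalings and the replicate block (upper ticks) and with 1 library left out (lower ticks), with dashed lines at the limit on fold change (0.585 either way). *IAA12* moves most, between -4.04 and -2.60, and *ARF10* stays inside the limit in each of these fits.

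Across the scalings, pseudocounts, filters and libraries left out, each of the 4 kept its direction. *ARF10* ranged from -0.576 to -0.434 and did not reach the limit on fold change in any of these fits. Each fit changed a single setting. Combined settings were not tried, nor was the count test by which the study had listed *ARF10*. *ARF22* ranged from -0.97 to -0.78 and *LAX2* from 0.90 to 1.06, all past it.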

How the data were processed

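RNA-seq libraries of 3 *mads1* and 3 WT samples were analysed. The authors trimmed the reads (Trimmomatic), mapped them to a barley genome and deposited FPKM values estimated with RSEM 1.3.3. The aligner and genome version are not given in the sources used here. The identifiers are those of Morex version 3. The methods call the samples of a genotype biological replicates and pools of plants. The p-values set the difference between genotypes against the spread between these samples, as moderated over genes by limma. FPKM holds no read counts, so the count test of the methods was replaced by limma 3.58.1 in R 4.3.3 (lmFit, eBayes with a trend) on log2(FPKM + 1). A gene entered the fit when 3 or more of the 6 libraries reached 1 FPKM, which 17996 did, and p was adjusted over these (Benjamini-Hochberg). The fit was checked on simulated data. Older identifiers were joined through the 605 pairs of the study's list of bound and changed genes. None of the identifiers matched the RefSeq table, so no pathway list free of the contrast, no marker list of other tissues and no sequence of the 4 genes was used. The 4 genes, the lists, the rule for likeness (the 3 closest genes) and the 2 neighbours on each side were chosen with earlier results of these data known, and the ratios between genes and the orders of libraries after the values were seen. At most 2.18% of values were identical between libraries. An exact permutation test of 3 against 3 samples cannot go below a two-sided p of 0.1. Alternatives were pseudocounts, filters, scalings, a replicate block, eBayes without a trend, no limit on fold change and each library left out. 1 gene of the study's list is not reported here.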

Additional observations from a re-analysis of the deposited data

How the results depend on the processing

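The depth of the libraries is unknown, so no detection limit could be set for *IAA12* in *mads1*, and RefSeq names could not be joined. The values of the 4 genes kept their sign in every fit. With a pseudocount of 0.1, *IAA12* was at -4.04 and *ARF22* at -0.97 on the log2 scale. With quantile normalization *ARF22* was at -0.78 and *ARF10* at -0.43, and with libraries rescaled to the same total *ARF10* was at -0.46. The median over all genes tested was 0.11 under both of these scalings, against 0.05 as deposited. By adjusted p alone limma called 7779 genes, 4011 lower and 3768 higher, against 3794, 2607 and 1187 when the fold limit was also applied. Filtering at 5 FPKM gave 769 higher genes of 14316 tested, against 1187 of 17996 with the filter at 1 FPKM. With it, 5 of the 7 other auxin genes were left, all 5 called. With 1 library left out, *IAA12* lay between -3.20 and -2.60, *ARF22* between -0.90 and -0.82, *ARF10* between -0.56 and -0.50 and *LAX2* between 0.90 and 1.06, and 3402 to 4158 genes were called. With the replicate number as a block 3781 genes were called. The deviations of same-numbered libraries correlated at -0.07, -0.28 and 0.20. Libraries with different numbers were not compared, so this does not decide whether the numbers pair the samples.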
